A study of Mus musculus with 44 samples.

Results

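The 10 immediate early genes Fos, Fosb, Jun, Junb, Egr1, Atf3, Ier2, Nr4a1, Zfp36 and Btg2 were followed in the liver and the skeletal muscle of WT mice and of mice lacking Slc16a13 (KO). They were listed by name, their symbols were matched to the Ensembl identifiers of a table of 38202 genes, and all 10 were found. RNA-Seq had been performed on both tissues of 11 WT and 11 KO littermates, which gave 44 libraries from 22 mice. All mice were males on a C57BL/6N background, were 20 weeks old and had been fed a high-fat diet (HFD) for 15 weeks, and the KO mice carried a germline CRISPR/Cas9 deletion in Slc16a13, which codes for a monocarboxylate transporter of the plasma membrane. The methods of the study state that mice were killed after an overnight fast unless otherwise stated. The values are those found at tissue collection.

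Immediate early genes are transcribed within minutes of a signal, such as a growth factor, a hormone, stress or injury, without the need for newly made protein. Kinase cascades act on factors that already sit at their promoters, CREB at cAMP response elements and the serum response factor with its partners at serum response elements, and both the transcripts and most of the proteins are short-lived. In liver these genes are known to respond to glucagon, partial hepatectomy and handling of the tissue, and in muscle to contraction.

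For 8 of the 10 genes a promoter was found in the RefSeq table (build GRCm38.p6), and Egr1 and Ier2 had no entry there. The 250 bases before the start of 4 of them are shown because these genes carried the main results below: Fos and Zfp36 had the highest correlation between liver and muscle of a mouse, Btg2 was the gene closest to Fos across livers, and Nr4a1 showed the largest difference between the tissues. Each run is written 5′ to 3′ on the strand of its gene. Capitals mark the cAMP response element TGACGTCA or its half-site TGACG, which in Nr4a1 is read on the other strand, the TATA box TATAAA, and the serum response element (CArG box). The Fos promoter lies on the forward strand at chr12:85473640-85473889, that of Btg2 on the reverse strand at chr1:134079156-134079405, that of Zfp36 on the reverse strand at chr7:28379229-28379478 and that of Nr4a1 on the forward strand at chr15:101266596-101266845.
Fos: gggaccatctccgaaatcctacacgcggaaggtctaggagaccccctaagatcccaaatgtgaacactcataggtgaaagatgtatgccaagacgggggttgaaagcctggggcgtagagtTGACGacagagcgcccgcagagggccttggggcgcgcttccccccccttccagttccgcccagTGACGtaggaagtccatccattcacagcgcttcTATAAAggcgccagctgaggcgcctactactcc
Btg2: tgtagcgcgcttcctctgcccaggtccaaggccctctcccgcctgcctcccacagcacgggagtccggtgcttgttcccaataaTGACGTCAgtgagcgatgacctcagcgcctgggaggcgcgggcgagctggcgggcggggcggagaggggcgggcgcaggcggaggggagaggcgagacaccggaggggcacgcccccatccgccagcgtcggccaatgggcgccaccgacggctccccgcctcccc
Zfp36: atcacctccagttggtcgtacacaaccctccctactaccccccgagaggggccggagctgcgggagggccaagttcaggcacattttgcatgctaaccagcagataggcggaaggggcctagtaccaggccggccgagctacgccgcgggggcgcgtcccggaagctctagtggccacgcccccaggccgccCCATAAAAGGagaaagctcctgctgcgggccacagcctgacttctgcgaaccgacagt
Nr4a1: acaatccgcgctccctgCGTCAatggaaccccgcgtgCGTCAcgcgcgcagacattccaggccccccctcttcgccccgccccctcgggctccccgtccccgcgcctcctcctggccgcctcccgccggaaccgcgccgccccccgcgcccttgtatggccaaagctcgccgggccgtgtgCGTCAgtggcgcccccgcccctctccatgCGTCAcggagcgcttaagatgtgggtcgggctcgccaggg
The Fos promoter held 2 half-sites, 129 and 66 bases before the start, and a TATA box at 33. Btg2 held the full cAMP response element at 166, which is itself made of 2 overlapping half-sites, and Zfp36 held a serum response element at 58. In Nr4a1 there were 4 half-sites, at 233, 213, 69 and 40. Fosb, Junb and Atf3 held 1 half-site each, and no searched motif was found in the window of Jun. Of the 32851 promoters of the table, 1.55 percent held the full cAMP response element and 17.77 percent its half-site on either strand, 1.47 percent the serum response element on either strand and 7.59 percent the TATA box on the strand of the gene. The AP-1 site TGACTCA (4.46 percent of promoters) and the EGR site GCGTGGGCG (0.54 percent), both searched on both strands, were in none of the 8 windows. A match describes the letters and says nothing about binding in these tissues.

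The libraries held between 20150712 and 35218243 reads counted on genes. The 6 hepatocyte markers summed to 75378 to 118893 CPM (counts scaled to the effective library size) in livers and at most 8.35 CPM in muscles, and the 6 myofibre markers to 116587 to 191016 CPM in muscles and at most 55.6 CPM in livers, so that each tissue held its own markers. Between 99 and 302 reads of Slc16a13 were counted in WT livers and 0 to 8 in KO livers, while muscle held 4 to 22 reads in WT libraries and 11 to 40 in those labelled KO. Muscle counts were thus not lower under the KO label, and the wording labelled KO is kept for these libraries. Their animal numbers are those of the KO livers. The only gene called between genotypes in muscle was Slc16a11, which the paper places next to Slc16a13. Its log2 fold change was 2.03 (adjusted p = 0.014 by edgeR). The deletion described in the paper covers the proximal promoter and the first exons. Where in the gene the muscle reads lay was not tested. In liver, 4 KO libraries (mice 532, 583, 602 and 611) held fewer reads on long genes than any WT liver (a slope of log2 CPM against log2 length of -0.54 to -0.08, against 0.04 to 0.10), and the genotype difference, the spread and the correlations of the members in liver are also given without them. Without these 4 livers the median CPM of the KO livers was unchanged for Fos, Fosb, Jun, Atf3, Nr4a1 and Btg2, and was 15.4 in place of 11.996 for Egr1, 8.58 in place of 9.03 for Ier2, 6.57 in place of 6.61 for Junb and 79.6 in place of 80.0 for Zfp36. WT mouse 624 stood apart on the genes studied here: its liver had the highest CPM of all 22 livers for each of the 9 immediate early genes that passed the filter on low counts. Liver results are therefore also given without this mouse, an alternative that was added after seeing the data. Bulk tissue was sequenced, so that fewer cells of a type and less RNA per cell cannot be told apart.

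The levels of the 10 genes in single mice were compared per kilobase of gene length (CPM per kb), which allows genes to be ranked against each other. Zfp36, an RNA-binding protein that promotes decay of cytokine and other AU-rich transcripts, was the most abundant in WT liver, with a median of 46.8 CPM per kb, and it exceeded Ier2, the next gene, in 11 of 11 mice. Neighbors are said to differ beyond the spread where the mean of their log2 difference within a mouse exceeded its SD. Ier2, Btg2, Jun, Junb, Egr1, Atf3, Nr4a1 and Fos followed at medians of 6.28 down to 1.202 CPM per kb, and none of these neighbors differed from each other beyond the spread between mice. Fosb was lowest, at 0.128 CPM per kb, below Fos in 11 of 11 mice. The order in KO livers had the same 2 steps, below Zfp36 (44.6 CPM per kb) and above Fosb (0.0645 CPM per kb). In WT muscle the order was a different one. Nr4a1 came first at 67.0 CPM per kb and exceeded Jun (22.3 CPM per kb) in 11 of 11 mice. Jun and Zfp36 (16.5 CPM per kb) did not differ beyond the spread, while Zfp36 exceeded Btg2 (10.04 CPM per kb) in 10 of 11 mice. Btg2, Fos, Atf3 and Junb, the last 3 at 5.94, 5.60 and 3.99 CPM per kb, did not differ from one to the next beyond the spread, and Ier2 (2.10 CPM per kb) lay below Junb in 11 of 11 mice.

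**Figure D1:**
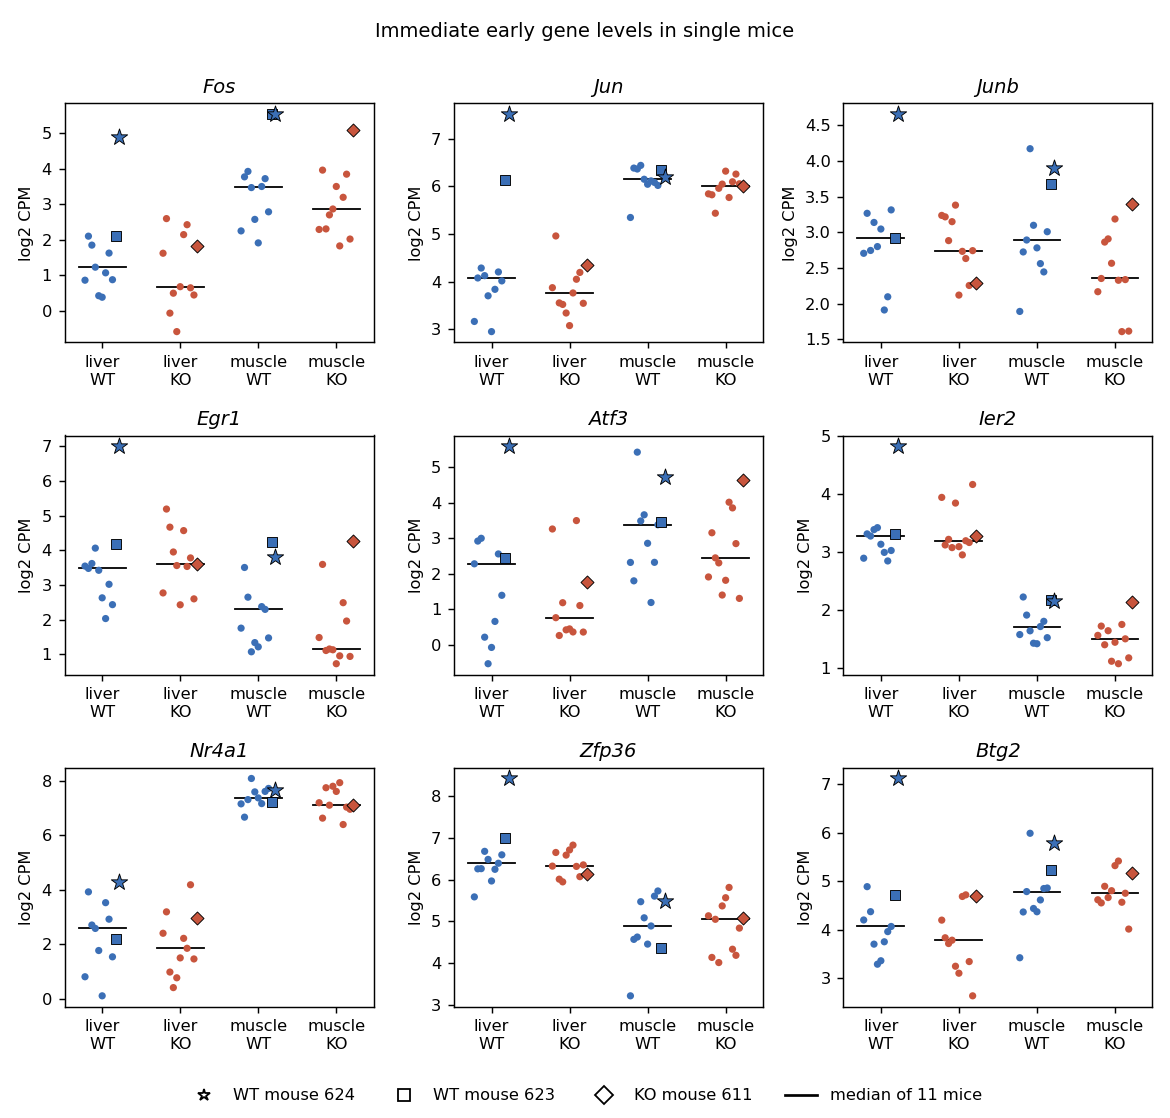
Level of the 9 immediate early genes that passed the filter, in log2 CPM (each panel has its own vertical axis), in 11 mice per tissue and genotype, with a line at the median of the group. The star, WT mouse 624, is the highest liver in all 9 panels, and the groups of WT and KO mice overlap in both tissues for every gene.

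The first comparison asked whether KO and WT mice differed in liver. None of the 9 genes that passed the filter was called by the quasi-likelihood F-test of edgeR, with p-values adjusted after Benjamini and Hochberg over all 13005 genes tested, of which 0.0231 percent passed an adjusted p of 0.05. At an unadjusted p under 0.05 there were 2 of the 9, Jun and Btg2, against 12.9 percent of all genes, and DESeq2 and limma-voom called 0 of the 9 as well. All 9 log2 fold changes were below 0, where 48.9 percent of all genes were above 0, and their median was -0.47, that of all genes -0.01. As the values below show, these differences rested largely on the liver of WT mouse 624. That mouse was singled out on these same genes, so a shift toward higher values without it was fixed in advance.

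The subunits of the AP-1 transcription factor were examined first. Fos (ENSMUSG00000021250), the partner of the JUN proteins in AP-1, had 1.23 CPM in the lowest, 2.27 in the median and 29.7 in the highest WT liver, and 0.592, 1.53 and 5.97 CPM in KO livers. All KO values lay below that of mouse 624, and 10 of the 11 WT livers lay within the range of the KO livers. The log2 fold change (KO over WT) was -0.93 (standard error, SE, 0.53, adjusted p = 0.39 by edgeR), and 0.08 (SE 0.36) without mouse 624. Jun (ENSMUSG00000052684), which binds DNA with FOS or as a homodimer, had 7.63, 16.8 and 183 CPM in the lowest, median and highest WT liver and 8.33, 13.5 and 31.02 CPM in KO livers. Only the livers of mice 624 and 623, at 183 and 70.7 CPM, exceeded the highest KO liver. Its log2 fold change of -1.21 (SE 0.47, adjusted p = 0.38) became -0.41 (SE 0.32) without mouse 624. Junb (ENSMUSG00000052837), a JUN relative with weaker activating capacity, ranged from 3.68 to 25.1 CPM in WT livers (median 7.53) and from 4.27 to 10.3 CPM in KO livers (median 6.61), with a log2 fold change of -0.32 (SE 0.25, adjusted p = 0.48) and one of -0.00 without mouse 624. Fosb (ENSMUSG00000003545), a FOS relative, was near the limit of detection. Its counts were 3 to 28 reads in WT livers and 0 to 40 in KO livers, and in the 1 KO liver at 0 reads a level of up to 0.109 CPM would have been missed (3 reads, counting error only). Fosb did not pass the filter on low counts in either tissue with all libraries. It passed in liver without the 4 KO livers that stood apart, with a log2 fold change of -0.20 (SE 0.53, adjusted p = 0.999 by edgeR).

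Atf3 (ENSMUSG00000026628), a member of the ATF/CREB family that is induced by stress, varied most. WT livers held 0.615 CPM at the lowest, 4.78 at the median and 47.9 at the highest, and KO livers 1.12, 1.62 and 11.2 CPM. The 3 lowest of the 22 values came from WT livers and so did the highest, so that the KO range lay inside that of the WT mice. A log2 fold change of -1.27 (SE 0.65, adjusted p = 0.38 by edgeR) was obtained for all mice and one of -0.21 (SE 0.51) without mouse 624. Egr1 (ENSMUSG00000038418), a zinc finger factor of the early growth response family, had 4.02, 11.1 and 127 CPM in the lowest, median and highest WT liver and 5.31, 11.996 and 36.4 CPM in KO livers. The medians were close to each other. Its sign depended on 1 library, since the log2 fold change was -0.47 (SE 0.51, adjusted p = 0.59) in all mice and 0.57 (SE 0.32) without mouse 624. Nr4a1 (ENSMUSG00000023034), an orphan nuclear receptor that takes part in the regulation of gluconeogenesis in liver, ranged from 0.993 to 19.2 CPM in WT livers (median 5.89) and from 1.24 to 18.1 CPM in KO livers (median 3.52). Both genotypes held livers near the top of the range, and the log2 fold change was -0.44 (SE 0.47, adjusted p = 0.59), -0.16 without mouse 624 and -0.83 without KO mouse 598.

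Ier2 (ENSMUSG00000053560), a nuclear protein of the immediate early response family, differed least, with 7.08 to 28.1 CPM in WT livers (median 9.56) and 7.62 to 17.8 CPM in KO livers (median 9.03). Its log2 fold change was -0.01 (SE 0.21, adjusted p = 0.99 by edgeR) in all mice and 0.27 (SE 0.15) without mouse 624. For Zfp36 (ENSMUSG00000044786), WT livers held 48.0, 83.9 and 342 CPM and KO livers 61.6, 80.0 and 113 CPM at the lowest, median and highest. Mice 624 and 623 (127 CPM) were again the WT livers above the KO range, and the log2 fold change of -0.36 (SE 0.25, adjusted p = 0.43) was 0.00 without mouse 624. Btg2 (ENSMUSG00000020423), an antiproliferative factor that binds the deadenylase complex, had 9.71, 16.7 and 139 CPM in WT livers and 6.16, 13.7 and 26.3 CPM in KO livers. The log2 fold change of -0.87 (SE 0.41, adjusted p = 0.38) was reduced to -0.15 (SE 0.25) when mouse 624 was left out. Without the 4 KO livers that stood apart on gene length, the log2 fold changes of the 9 genes lay between -1.44 (Atf3) and -0.18 (Egr1), all with an adjusted p of 0.999. Ier2, at -0.32, was the gene that moved most with these 4 libraries.

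**Figure D2:**
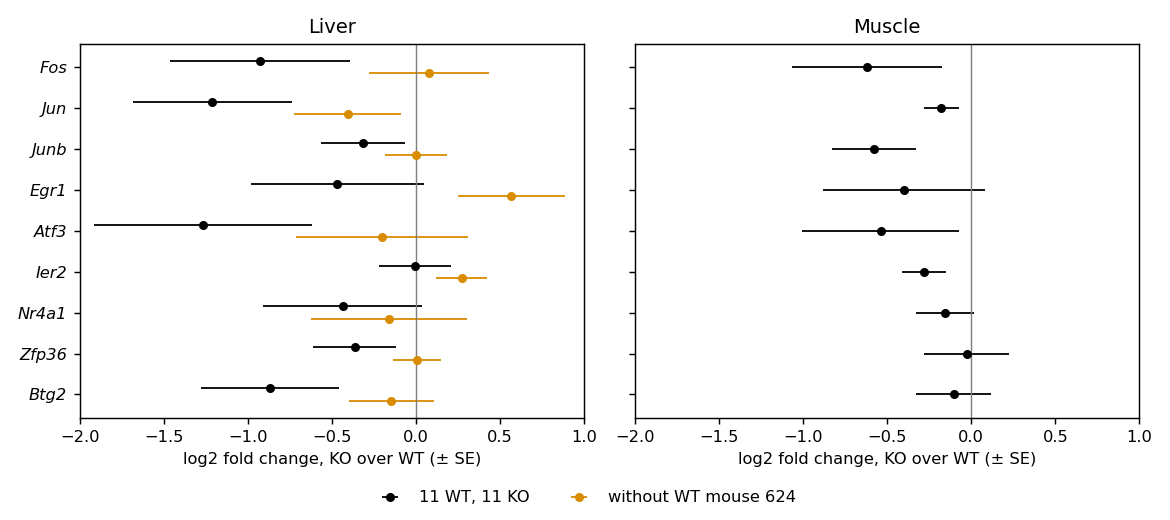
Log2 fold change of KO over WT mice with its standard error, in liver (black all 22 mice, orange without WT mouse 624) and in muscle (22 libraries). In liver 9 of 9 values lie below 0 with all mice. Mouse 624 had the highest liver value of all 9 genes, so leaving it out raises each estimate by construction. In muscle 9 of 9 values lie below 0.

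In muscle, none of the 9 genes was called between WT libraries and those labelled KO by the same test, where 0.00754 percent of 13266 genes passed. Junb and Ier2 had an unadjusted p under 0.05, which 8.64 percent of all genes had, and DESeq2 and limma-voom called 0 of the 9. Junb ranged from 3.63 to 17.96 CPM in WT muscles (median 7.35) and from 2.97 to 10.49 CPM in those labelled KO (median 5.03). The ranges overlapped, and the log2 fold change was -0.58 (SE 0.25, adjusted p = 0.53). Ier2 was at 2.59 to 4.58 CPM (median 3.19) and 2.02 to 4.29 CPM (median 2.75), a log2 fold change of -0.28 (SE 0.13, adjusted p = 0.56). Fos spanned 3.70, 11.2 and 46.1 CPM at the lowest, median and highest WT muscle and 3.48, 7.22 and 33.98 CPM in those labelled KO. A few mice of both genotypes lay far above the others, and the log2 fold change was -0.62 (SE 0.45, adjusted p = 0.72). It was -1.005 without KO mouse 611 and -0.32 without WT mouse 624.

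The other genes of the list in muscle showed log2 fold changes closer to 0 or larger errors. Egr1 had a median of 4.85 CPM in WT muscles (2.04 to 18.98) and of 2.16 CPM in those labelled KO (1.59 to 19.2), with a log2 fold change of -0.40 (SE 0.48). That of Atf3 was -0.54 (SE 0.46), with medians of 10.3 and 5.38 CPM. Both values depended on single mice. Without the muscle of KO mouse 611, the log2 fold change of Egr1 was -0.91 and that of Atf3 -0.86, whereas it was -0.11 for Egr1 without WT mouse 623 and -0.14 for Atf3 without WT mouse 531. Jun, Nr4a1, Btg2 and Zfp36 had log2 fold changes of -0.18, -0.16, -0.10 and -0.03. All 9 values were below 0, with a median of -0.28, while the median over all genes was 0.01 and 53.7 percent of them were above 0. Fosb counts were 1 to 86 reads in WT muscles and 1 to 58 in those labelled KO.

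Whether the KO difference in liver differed from that in muscle was tested as an interaction over all 44 libraries, with no mouse term. All 10 genes passed the filter. None was called, with 0.00678 percent of 14739 genes past an adjusted p of 0.05. Jun had the largest difference (KO over WT in liver minus that in muscle), -1.04 on the log2 scale (SE 0.49, unadjusted p = 0.041, adjusted p = 0.30 by edgeR), and it was -0.28 with animal number as replicate block and -0.24 without mouse 624. At an unadjusted p under 0.05 there was 1 of the 10, against 16.2 percent of all genes. Fosb, which passed the filter in this fit with all libraries, had a difference of 0.66 (SE 0.88, adjusted p = 0.70), which was 0.13 with the block and 1.44 without the mice with a KO liver that stood apart.

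The tissues themselves were compared in the 11 WT mice. Liver and muscle differed for 6 of the 9 tested genes, 3 in each direction, by the same test of edgeR, beside 91 percent of all 13907 genes (45.5 percent higher and 45.5 percent lower in liver). A share of 6 in 9 is thus not above the background. This fit held no term for the mouse, although both tissues came from the same animals. With animal number as replicate block, 7 of the 9 were called, beside 12674 of all 13907 genes. Nr4a1 was lower in liver, with a log2 fold change (liver over muscle) of -4.52 (SE 0.36, adjusted p = 8.5e-12). Its WT values were 0.993 to 19.2 CPM in liver and 101 to 272 CPM in muscle, so that the tissues did not overlap. Ier2 was higher in liver, with a log2 fold change of 1.71 (SE 0.21, adjusted p = 2.4e-08) and no overlap between 7.08 to 28.1 CPM in liver and 2.59 to 4.58 CPM in muscle. These 2 of the 9 genes did not overlap between tissues, compared with 70.9 percent of all genes.

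Zfp36 was higher in liver by 1.81 (SE 0.30, adjusted p = 4.8e-06), in 11 of 11 mice, although the ranges overlapped between the lowest liver (48.0 CPM) and the highest muscle (52.9 CPM). Fos was lower in liver by -1.56 (SE 0.55, adjusted p = 0.010), and its muscle value exceeded its liver value in all 11 mice. With animal number as replicate block, the log2 fold change of Fos was -1.90 (SE 0.20, adjusted p = 2.2e-07). Egr1 was higher in liver, in 9 of 11 mice, with 1.73 (SE 0.56, adjusted p = 0.0057), a value that fell to 0.86 without mouse 624 and to 0.68, no longer called, with DESeq2. Jun was lower in liver in 10 of 11 mice, with mouse 624 as the exception, and its log2 fold change of -0.94 (SE 0.44, adjusted p = 0.047) was -1.74 under the block and -1.74 without that mouse.

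Atf3, Btg2 and Junb did not pass, at log2 fold changes (liver over muscle) of -0.55, -0.03 and 0.07. Atf3 was called under the replicate block, with -1.03 (SE 0.44, adjusted p = 0.038 by edgeR). Without mouse 624, Atf3 was at -1.46 (adjusted p = 0.0086) and Btg2 at -0.64 (adjusted p = 0.019), and both were then called. Junb was at -0.14 (adjusted p = 0.57) in the same fit.

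**Figure D3:**
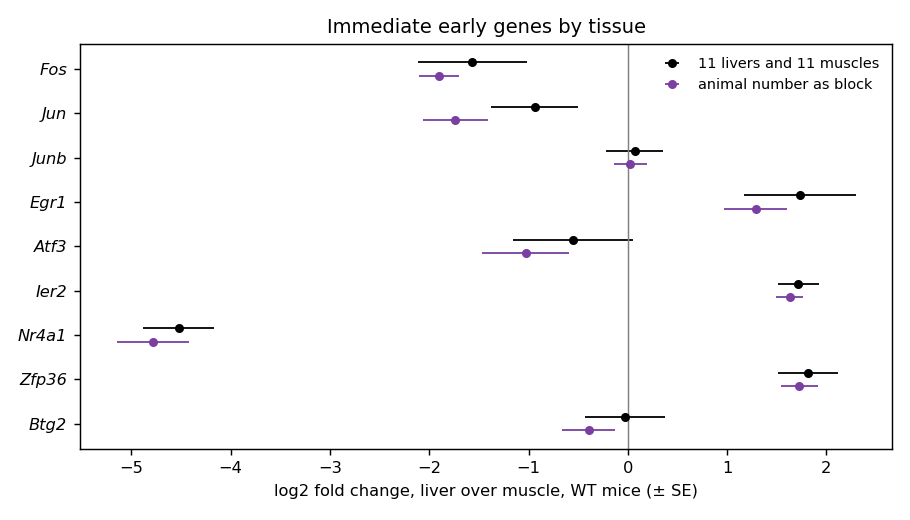
Log2 fold change of liver over muscle in 11 WT mice with its standard error, without (black) and with (purple) animal number as block. Ier2, Zfp36 and Egr1 lie to the right of 0 and Nr4a1 lies far to the left, at -4.52 and -4.78, and the errors of Fos are 0.55 and 0.20.

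The liver of WT mouse 624 was described further. It exceeded the median of the other 21 livers by more than 4-fold for 7 of the 9 tested genes, beside 0.185 percent of all 13005 genes, and it was the highest liver for 9 of 9, beside 3.13 percent of all genes. Mouse 624 was singled out on these same genes, so the counts are a description and no test was made. Atf3 was at 23.1 times the median of the other livers, Fos at 14.6 times, Jun at 12.6 times, Egr1 at 11.0 times and Btg2 at 9.76 times. Zfp36 and Nr4a1 were at 4.28 and 4.25 times, Junb and Ier2 at 3.65 and 3.11 times. Fosb, at 0.785 CPM, was the 4th highest of 22.

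A total of 24 genes exceeded 4-fold in this liver, 7 of them the immediate early genes above. Slc16a13 was one of them, since 11 of the other livers carried the deletion. Among the rest were Gdf15 (15.3-fold on log2 CPM with a prior count of 2), a secreted stress cytokine, Cidea (11.2-fold) and Cidec (5.45-fold), which coat lipid droplets, Rgs16 (6.92-fold), a regulator of G protein signaling, the neurotrophin receptor Ntrk2 (6.77-fold), Gstm3 (5.59-fold) and Cxcl1 (4.56-fold), a chemokine. These genes were chosen after their values had been seen. From the 67 tested genes of the other lists of primary response genes, Ccn1 (7.65-fold), the phosphatase Dusp1 (6.45-fold) and Klf10 (4.31-fold) exceeded 4-fold, and 10 were highest in this liver. None of the 6 heat shock genes was highest there. The hepatocyte markers summed to 75378 CPM, the lowest of 22 livers, the adipocyte markers to 108 CPM, the highest, and the fibroblast markers to 224 CPM, the 2nd highest, while macrophage markers, at 292 CPM, ranked 21st. Only 1 of the 4 adipocyte markers passed the filter on low counts in liver, Cidec, named above as a lipid droplet gene. The adipocyte sum is therefore not independent of the value of Cidec. The part of the cell types in the values was not tested.

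In muscle, mouse 624 was the highest for 0 of the 9 genes, beside 4.48 percent of all genes, and exceeded 4-fold for 2, Fos and Egr1, beside 0.0603 percent. There, 3 mice stood out for Fos. WT 623, WT 624 and KO 611 had the highest Fos levels, at 46.1, 46.0 and 33.98 CPM, while the median of the other 21 muscles was 9.09 CPM for each of them. The same mice had the highest Egr1 levels, at 18.98, 13.8 and 19.2 CPM. For Jun, Nr4a1 and Zfp36 they lay between the 4th and the 17th place of 22, so that the pattern did not extend to all members. Mouse 624 ranked 2nd or 3rd in muscle for Fos, Fosb, Junb, Egr1, Atf3, Ier2 and Btg2, mouse 623 had the 2nd highest liver value of Jun and Zfp36, and the liver of mouse 611 ranked between the 4th and the 18th place. The muscle of KO 611 also had the lowest sum of myofibre markers (116587 CPM). It was the highest of 22 muscles for 11.4 percent of all genes, a share that was 12.4 percent for KO 561. The adipocyte, erythroid, macrophage, endothelial and fibroblast sums of KO 611 were high (604, 190, 94.6, 294 and 573 CPM, against WT medians of 175, 63.5, 41.6, 187 and 430 CPM). The muscle of WT 624 had the lowest myofibre sum of the WT mice (133858 CPM), the highest macrophage (68.5 CPM) and endothelial (247 CPM) sums of the WT mice and an adipocyte sum of 353 CPM. That of WT 623 was nearer to the WT medians, with 174282, 41.2, 189 and 108 CPM for myofibre, macrophage, endothelial and adipocyte markers. Whether these markers bear on the members in those muscles was not tested.

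**Figure D4:**
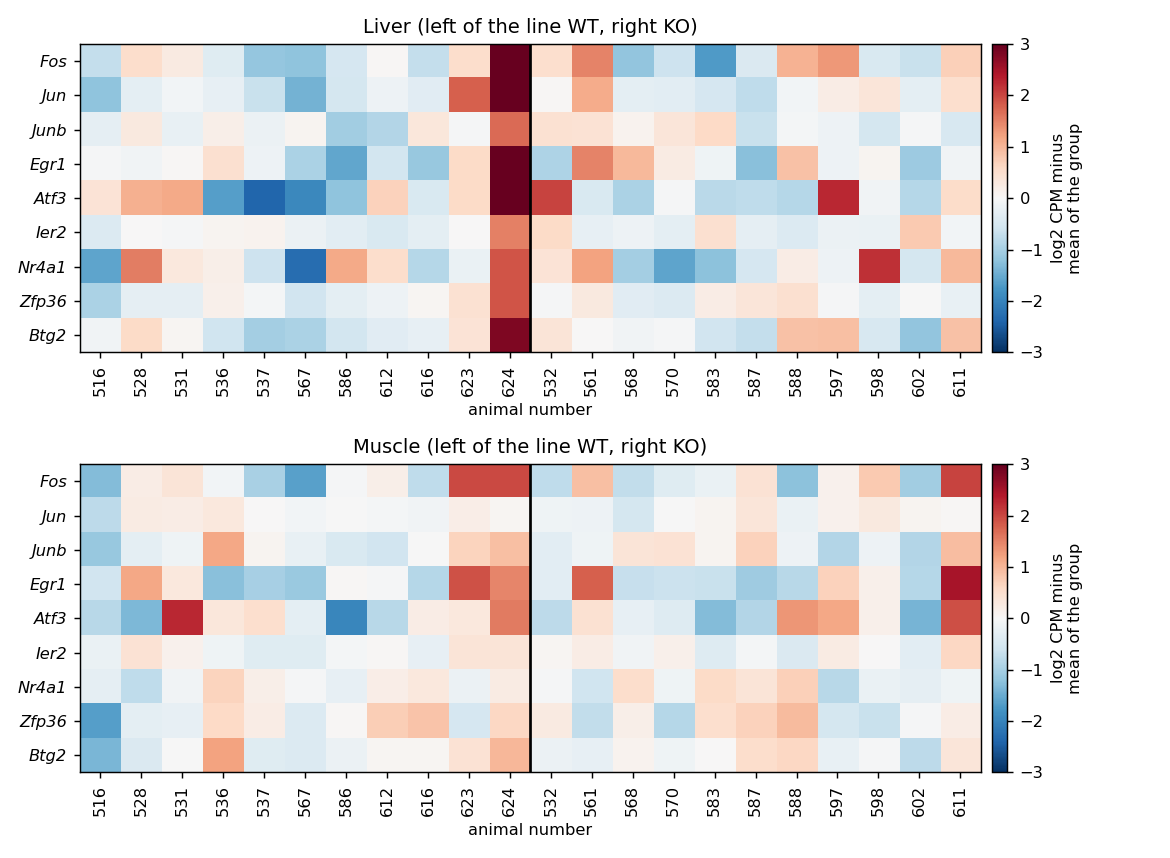
Log2 CPM of the 9 genes in each mouse minus the mean of its group (red above, blue below, colors capped at 3), in liver and muscle with the same order of mice. Mouse 624 is red for all genes in liver, while in muscle the darkest red cells for Fos are those of WT 623, WT 624 and KO 611.

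The spread between mice was wide for most members. In WT livers the standard deviation of log2 CPM was 1.76 for Atf3, 1.33 for Jun, 1.31 for Egr1, 1.28 for Nr4a1, 1.25 for Fos and 1.06 for Btg2, against a median of 0.17 over all genes. Junb, Zfp36 and Ier2 were at 0.72, 0.73 and 0.54. Between 93.6 percent (Ier2) and 99.9 percent (Atf3) of all genes had a smaller value. Without mouse 624 the standard deviation of Atf3 was 1.33, that of Nr4a1 1.18 and that of Jun 0.86. It was 0.70 for Egr1, 0.64 for Fos, 0.53 for Btg2, 0.47 for Junb, 0.39 for Zfp36 and 0.21 for Ier2. Atf3 and Nr4a1 therefore varied widely among the other 10 WT livers as well, with an 11.5-fold and a 14.1-fold range. In KO livers the standard deviation was above 1 for Atf3 (1.16), Nr4a1 (1.14) and Fos (1.06) and was 0.30 for Zfp36, while the median of all genes was 0.35. Without the 4 KO livers that stood apart (n = 7) the median of all genes was 0.18, and Atf3, Nr4a1 and Fos were at 1.12, 1.30 and 1.08. Ier2 then had a standard deviation of 0.090 in place of 0.41.

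Muscle showed another order. Atf3, Fos and Egr1 had standard deviations of log2 CPM of 1.23, 1.18 and 1.103 in WT muscles and 1.11, 0.98 and 1.18 in those labelled KO. Jun, Ier2 and Nr4a1 varied less than the other members, at 0.30, 0.30 and 0.38 in WT muscles. These values were still above the median of all genes (0.16). For Nr4a1 the WT muscles spanned 2.68-fold and the WT livers without mouse 624 14.1-fold, so that the gene was both more abundant and less variable in muscle. This contrast of spreads between tissues was not tested. The biological coefficient of variation estimated by edgeR was 0.98 for Atf3 in liver, where the trend for genes of its abundance was 0.26, and 0.70 for Fos in muscle with a trend of 0.14. For Ier2 in muscle this coefficient was 0.20, below its trend of 0.23. Jun and Nr4a1 in muscle were at 0.17 and 0.28, above their trends of 0.12 and 0.12.

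Whether the spread differed between genotypes was tested on the absolute deviations from the group median with limma. None of the 9 genes was called in either tissue, and no gene of all those tested was (0 percent of 13005 genes in liver and 0 percent of 13266 in muscle). At an unadjusted p under 0.05 there were 0 of the 9 in both tissues, beside 16 percent of all genes in liver and 2.23 percent in muscle. The largest difference was that of Atf3 in liver, -0.53 (KO minus WT, log2 CPM, adjusted p = 0.45 from limma), and it was -0.67 without the 4 KO livers that stood apart. In simulated data this test called few of the genes with a changed spread after adjustment, so that the lack of calls does not show equal spreads.

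Both tissues of a mouse were then compared, to ask whether mice with a high level in liver had a high level in muscle. Deviations from the group means were correlated over 22 mice, and 36 relations were computed in all (9 genes in all mice, in WT, in KO and without mouse 624). Across all 11607 genes tested in both tissues, 0.422 percent had a partial correlation given genotype with an adjusted p under 0.05 and 63.8 percent were above 0. None of the 9 members was called, 2 of 9 (Fos and Zfp36) had an unadjusted p under 0.05 beside 8.1 percent of all genes, and 8 of 9 were above 0. Fos had the highest correlation, r = 0.60 (permutation test with 100000 resamples, p = 0.0036, rho = 0.64 with p = 0.0024, adjusted p over all genes 0.27), which put it in place 146 of 11607 genes. Without the 2 mice farthest from the median in liver, r was 0.43. Zfp36 followed with r = 0.52 (permutation p = 0.028, rho = 0.57 with p = 0.0077, adjusted p over all genes 0.45), and r = 0.42 without the 2 farthest mice. Egr1 had r = 0.43 (permutation p = 0.043, rho = 0.38 with p = 0.090, adjusted p over all genes 0.62), which was 0.19 without the 2 farthest mice, so that the relation rested on those.

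For the remaining genes, r was 0.40 for Btg2, 0.32 for Atf3, 0.30 for Junb, 0.24 for Jun, 0.12 for Ier2 and -0.25 for Nr4a1, with permutation p-values from 0.11 to 0.61. Btg2, Junb and Ier2 were near 0 without the 2 farthest mice, at 0.00, 0.05 and 0.01. Without the mice with a KO liver that stood apart, r was 0.66 for Fos, 0.53 for Zfp36, 0.50 for Egr1, 0.45 for Junb and 0.44 for Ier2, and none of the 9 was called. Leaving out mouse 624 moved the leading genes in opposite directions. Without it, r was 0.47 for Fos (permutation p = 0.032), 0.33 for Egr1 and 0.59 for Zfp36 (permutation p = 0.0071).

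Within WT mice, Fos had r = 0.84 and rho = 0.96 (n = 11, permutation test with 100000 resamples, p = 2.0e-05 for both, adjusted p of 0.28 over all genes from the partial correlation). Without the 2 mice farthest from the median in liver, of which mouse 624 was one, r was 0.88. The WT mice with the lowest Fos in liver, 567 and 537, at 1.23 and 1.27 CPM, had 3.70 and 5.89 CPM in muscle, and mice 528 and 531, at 4.22 and 3.53 CPM in liver, had 13.6 and 15.1 CPM. Mouse 516 lay between them in liver (1.75 CPM) and had 4.69 CPM in muscle. In KO mice the correlation of Fos was 0.27 (permutation p = 0.41), and 0.13 without the 2 farthest mice. Mice 588 and 597, with 4.35 and 5.30 CPM in liver, had 3.48 and 9.09 CPM in muscle. Other KO mice had the same order in both tissues, such as 561 and 568, with 5.97 and 0.882 CPM in liver and 15.5 and 4.88 CPM in muscle. The difference of 0.56 between the correlations of WT and KO mice was not called (permutation of the genotype labels, p = 0.10), and the smallest p of the 9 differences was 0.081, for Junb (0.59 in WT, -0.25 in KO). Zfp36 had nearly the same correlation in both genotypes, 0.54 in WT and 0.56 in KO mice (permutation p = 0.094 and 0.079), and 0.22 and 0.19 without the 2 farthest mice of each. Without the 3 mice highest in muscle Fos, an alternative added after seeing the data, r was 0.78 for Zfp36 with an adjusted p over all genes of 0.039, and 0.39 for Fos.

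**Figure D5:**
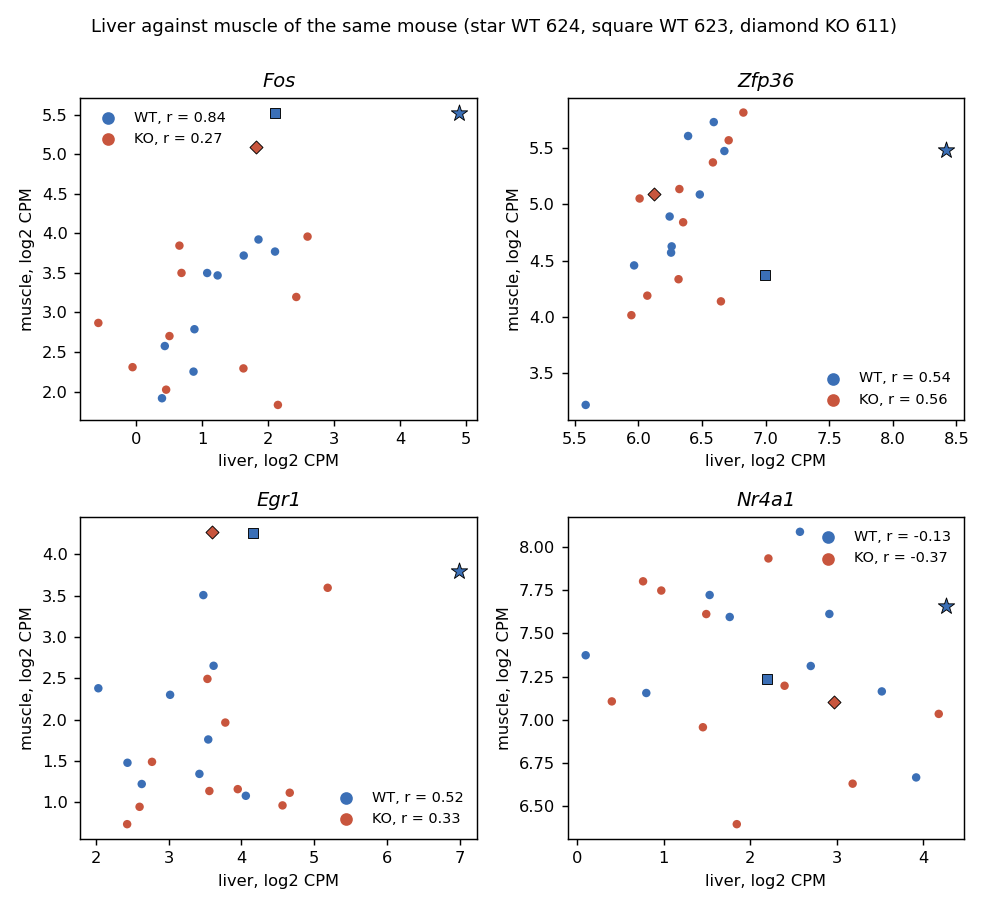
Log2 CPM in liver (horizontal) against muscle (vertical) of the same mouse for Fos, Zfp36, Egr1 and Nr4a1, 11 WT (blue) and 11 KO mice (red), with Pearson r per genotype. Fos shows r = 0.84 in WT and 0.27 in KO mice, and Nr4a1 -0.13 and -0.37.

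Correlations between the members within a tissue depended on mouse 624 in liver. Over the 36 pairs of the 9 genes, the median correlation across 22 livers was 0.60 and 35 pairs were above 0, with Fos and Btg2 the closest pair (0.87). Without mouse 624 the median was 0.19, 26 pairs were above 0, and Fos and Btg2 remained the closest at 0.76. Without the 4 KO livers that stood apart it was 0.68. In muscle the median was 0.36 with 30 pairs above 0, and 0.30 without mouse 624. Over all pairs of all tested genes, 50 percent were above 0 in liver and 49.8 percent in muscle, with medians of 0.00055 and -0.0020. Among the 36 pairs of members in muscle, Egr1 and Ier2 were the closest (0.88) and Egr1 and Nr4a1 the most opposed (-0.54). In muscle the median correlation of Nr4a1 with the other members was -0.01, but this median does not hold for each of them. Among the muscles labelled KO, that of mouse 588 was the highest for both Nr4a1 (244 CPM) and Zfp36 (56.1 CPM). That of mouse 597 was the lowest of these for Nr4a1 (84.1 CPM) and held 20.1 CPM of Zfp36. Mice 570, 561 and 598 were lower for Zfp36, at 16.1, 17.5 and 18.2 CPM. These mice are examples, and the correlation of this pair is not given. The correlations between members share libraries and are given as a description.

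The genes outside the list with the pattern most like the mean of the members were ranked by Pearson r over 22 mice. In liver the first 8 included Gdf15 (0.81), Dusp1 (0.80), Ccn1 (0.79), Rspo3 (0.77), Serpinb6b (0.76), Spry1 (0.74) and Fam124a (0.72), and of the first 8 only Serpinb6b was among the first 8 without mouse 624. In muscle they were St3gal5 (0.87), Diaph1 (0.86), Dusp1 (0.82), Gcnt2 (0.81), Uhrf1bp1l (0.81), mt-Nd4 (0.81), Nr4a2 (0.80) and Klf2 (0.80). Without mouse 624, St3gal5, Diaph1, Dusp1, Nr4a2 and Uhrf1bp1l were still among the first 8. Dusp1, which codes for a phosphatase that inactivates MAP kinases and is itself an immediate early gene, was in the list of both tissues with all mice.

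A total of 78 other primary response genes and regulators were examined in 9 lists (AP-1 relatives, relatives of EGR, KLF and NR4A, relatives of IER, BTG and ZFP36, other primary response transcription factors, feedback inhibitors, growth arrest and signaling genes, upstream regulators, partners of ATF3 in stress, and heat shock genes). Between genotypes, 0 of 67 tested genes were called in liver and 0 of 72 in muscle by the test of edgeR, with median log2 fold changes of -0.07 and -0.05. The genes with the smallest p were Ddit3, a stress factor, at 0.54 (SE 0.24), Csrnp1 at -0.30 and Trib1 at -0.26 in liver (adjusted p = 0.38 for each), and Phlda1 at -0.30, Creb1 at 0.13 and Hspa1b at -0.90 in muscle (adjusted p = 0.49). The interaction of genotype and tissue was called for 0 of 72. Between liver and muscle of WT mice, 26 of 71 genes were higher in liver and 37 lower, beside 45.5 percent of all genes in each direction. Plk3 (5.80), a stress-responsive kinase, and Phlda1 (3.97) were higher in liver on the log2 scale. Chac1 (-5.09), a glutathione-degrading enzyme, Nr4a3 (-4.07), Cebpd (-3.40), Gadd45a (-3.31), Ier3 (-3.12) and Spry2 (-2.92), an inhibitor of growth factor signaling, were lower in liver.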

How the data were processed

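RNA from liver and skeletal muscle of 22 mice was sequenced by the authors as poly(A)-selected, stranded libraries with 85 bp single-end reads. Genotype, tissue and animal number came from the labels, so that liver and muscle with 1 number are of 1 mouse. The authors deposited raw read counts per gene, without normalization, and RPKM values, scaled by the authors to gene length and library size. Aligner, counting program and genome build are not given in the sources used here. Gene length is the median of the lengths that counts and RPKM imply.

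Counts were tested with edgeR 4.0.16 under R 4.3.3 (filterByExpr, TMM scaling, QL F-test, adjustment after Benjamini and Hochberg with a threshold of 0.05), within each tissue for genotype, within WT mice for tissue and over all 44 libraries for the interaction. log2 CPM (prior count 2, scaled within each tissue) served for spread (limma 3.58.1) and for correlations (scipy 1.17.1, two-sided permutation tests within genotype, 100000 resamples). Alternatives were DESeq2 1.42.0, limma-voom, library size alone, no filter, gene length removed (loess, span 0.3), log2 of RPKM + 0.1, the replicate block and single libraries left out. The procedures were tested on simulated data, where the spread test recovered few changed genes after adjustment. The 10 genes and all lists were chosen with earlier results of these data known. Named were all 10 genes, from the other lists up to 8 genes with the largest called change or else the 3 with the smallest p, and the 8 genes most like the members per tissue. Further genes high in the liver of mouse 624 were chosen after their values were seen.

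Pairing came from the animal numbers. Deviations of liver and muscle from their group means had a mean correlation over 11607 genes of 0.10 within a mouse and -0.01 between mice of a genotype. Single mice ranged from -0.026 to 0.26, and 12 of 22 exceeded 0.1, so the pairing of each mouse rests on the labels. Libraries of a group differed by a chi-square per gene of at least 4.48 and were each counted once. Each mouse is a separate animal. Intervals from counts cover counting error only. One gene that met the rules for naming is not reported here.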

Additional observations from a re-analysis of the deposited data

Results flagged for a closer look

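No immediate early gene met a rule for a closer look. These rules did not search groups of 11 mice for single outlying samples, and no interaction of genotype and tissue was called for a member. Single mice that stood out, such as WT mouse 624, are described above. The gene deleted in the KO mice was the 1 gene whose KO difference differed between the tissues: for Slc16a13 the log2 fold change of KO over WT in liver minus that in muscle was -6.08 (QL F-test of edgeR, called after adjustment over 14739 genes). Between 0 and 8 reads were counted in KO livers and 11 to 40 in the muscle libraries labelled KO, against 99 to 302 and 4 to 22 in WT mice. The cause of the muscle count was not tested.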

How the results depend on the processing

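Alternatives other than single libraries left out, some of which left out mouse 624 or several mice, gave 338 member values. Of these, 301 kept their direction and their side of the threshold. Without the 2 mice farthest from the median in liver, only the direction was compared. A call was gained in 4 values and lost in 2. The sign turned in 31. The genotype difference in liver became 0.55 for Egr1 and 0.013 for Ier2 with DESeq2, 0.076 and 0.038 with limma-voom, and 0.86 for Egr1, 0.23 for Fos and 0.010 for Zfp36 without mouse 624 and the 4 KO livers standing apart. The tissue difference of Junb was -0.14 without mouse 624. The interaction with animal number as replicate block was 0.67 for Egr1 and 0.066 for Fos. Without mouse 624 it was 0.80 for Egr1, 0.40 for Fos and 0.16 for Atf3, and without the mice with a KO liver standing apart 0.52 for Egr1, 0.012 for Fos and -0.024 for Ier2. The correlation of liver with muscle in KO mice alone was -0.31 for Ier2, -0.14 for Jun and -0.25 for Junb, and -0.19 for Ier2 without the 3 mice highest in muscle Fos. The difference in spread in liver without mouse 624 was 0.13 for Btg2, 0.13 for Egr1, 0.095 for Ier2 and 0.0049 for Junb, 0.026 for Ier2 with deviations from the mean and -0.0075 for Fos from RPKM. In muscle it was 0.023 for Fos and 0.012 for Ier2 without mouse 624, 0.041 for Egr1 with deviations from the mean, and 0.0041 for Ier2 and 0.0085 for Jun from RPKM. None of these values had been called.

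The count of all genes called was 6 in liver with DESeq2, 0 in muscle with limma-voom and with no filter, and 3 in the interaction with library size alone. For the correlation of the tissues it was 82 with gene length removed, 31 without the mice with a KO liver standing apart, 1 in WT and 7 in KO mice alone, and 1 member was called without the 3 mice highest in muscle Fos. For the spread in liver it was 2632 with deviations from the group mean. The cause was not tested. The block changed no other call than that of Atf3 between tissues.

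Leaving out 1 library gave log2 fold changes in liver of -1.12 to 0.076 for Fos, -0.68 to 0.57 for Egr1, -0.094 to 0.27 for Ier2 and -0.44 to 0.0045 for Zfp36, each highest without WT mouse 624. In muscle the range was -0.14 to 0.068 for Zfp36 and -0.19 to 0.055 for Btg2, and for the correlation of Ier2 -0.14 to 0.25. Counts of called genes stayed within 1.5 times under every library left out. Depth limited Fosb, whose highest count was 86 reads.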
